A study of Mus musculus with 12 samples.

Results

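Microglia and macrophage marker genes were followed in RNA-seq of mouse oligodendrocyte progenitor cells (OPCs), the precursors of the cells that form myelin. The 33 genes were chosen by name, as genes whose products mark or operate in myeloid cells, from the 18876 genes listed in any library. All 33 were listed in at least 1 library, and 30 were among the 13967 genes that passed a filter on low counts and were tested. Aif1, Cd74 and Fcgr2b did not pass, with at most 46, 6 and 6 expected counts in any library. The cells were wild-type primary cells from brain, kept for 12 h in 1 of 4 conditions with 3 libraries each. One group received 50 µM hemin with 10 ng/mL interleukin-10 (IL-10) and 2.5 µM stattic, another 50 µM hemin with 10 ng/mL IL-10, another 50 µM hemin alone, and the vehicle group DMSO. Hemin is the oxidised form of heme, which is released when red cells break down, IL-10 is a cytokine whose receptor activates the transcription factor STAT3, and stattic blocks STAT3. Libraries are called stattic, IL-10, hemin and vehicle libraries below, although the first 2 also received hemin, and values of a group are given in the order of replicates 1, 2 and 3. The labels state neither the age of the animals, nor how the progenitors were purified, nor whether each replicate was a culture or an animal of its own, so that the p-values reflect the spread between these libraries, which may be technical.

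Microglia are the resident macrophages of the brain and arise from a myeloid lineage, not from the neural lineage that gives OPCs. They are commonly present in small numbers in glial cultures prepared from brain. The transcription factors PU.1 (encoded by Spi1) and IRF8 establish the myeloid programme, colony-stimulating factor 1 receptor (Csf1r) keeps the cells alive, and the complement protein C1q, lysosomal enzymes, immunoreceptor adaptors and the phagocyte NADPH oxidase serve the uptake and destruction of debris. In bulk RNA, more cells of a type and more RNA per cell cannot be told apart.

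Promoter sequences of members were taken from RefSeq (build GRCm38.p6), as windows of 300 bases from 250 before to 50 after a gene's start, and 23 of the 33 genes matched, with 27 windows. The windows below are those of the C1q chains that matched and of the 2 other members whose levels stayed closest to C1q across libraries (Laptm5 and Mpeg1, described below). Also shown is a window of Irf8, whose level varied less between libraries than its ratio to C1q did. All windows are written 5′ to 3′ on the gene's strand. Capitals mark GAGGAA on either strand, the core of sites bound by PU.1, and TTCNNNGAA, the core of sites bound by STAT factors.
C1qb, chr4:136886151-136886450, minus strand: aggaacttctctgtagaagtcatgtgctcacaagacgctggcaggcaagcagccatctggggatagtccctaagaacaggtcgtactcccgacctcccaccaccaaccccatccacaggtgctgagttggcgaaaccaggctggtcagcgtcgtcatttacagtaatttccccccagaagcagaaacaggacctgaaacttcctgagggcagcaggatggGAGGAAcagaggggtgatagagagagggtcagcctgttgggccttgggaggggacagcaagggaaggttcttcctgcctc
C1qc, chr4:136892865-136893164, minus strand: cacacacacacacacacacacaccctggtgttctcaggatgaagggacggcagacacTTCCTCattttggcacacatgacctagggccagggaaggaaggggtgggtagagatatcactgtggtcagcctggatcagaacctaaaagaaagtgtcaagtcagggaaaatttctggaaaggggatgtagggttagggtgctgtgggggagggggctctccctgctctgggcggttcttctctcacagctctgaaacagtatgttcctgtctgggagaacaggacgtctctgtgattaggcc
Laptm5, chr4:130913066-130913365, plus strand: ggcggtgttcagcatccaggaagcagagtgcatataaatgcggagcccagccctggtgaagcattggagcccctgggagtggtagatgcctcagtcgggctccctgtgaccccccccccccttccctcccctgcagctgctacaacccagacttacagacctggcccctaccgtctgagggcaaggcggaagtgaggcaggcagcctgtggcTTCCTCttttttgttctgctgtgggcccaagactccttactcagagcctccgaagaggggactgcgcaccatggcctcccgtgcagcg
Mpeg1, chr19:12460520-12460819, plus strand: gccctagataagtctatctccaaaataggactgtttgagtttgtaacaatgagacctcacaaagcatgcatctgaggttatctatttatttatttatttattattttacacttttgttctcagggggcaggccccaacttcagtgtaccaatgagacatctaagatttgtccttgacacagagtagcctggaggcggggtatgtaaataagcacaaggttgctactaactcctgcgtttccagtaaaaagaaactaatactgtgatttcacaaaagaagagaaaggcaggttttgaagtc
Irf8, chr8:120736108-120736407, plus strand: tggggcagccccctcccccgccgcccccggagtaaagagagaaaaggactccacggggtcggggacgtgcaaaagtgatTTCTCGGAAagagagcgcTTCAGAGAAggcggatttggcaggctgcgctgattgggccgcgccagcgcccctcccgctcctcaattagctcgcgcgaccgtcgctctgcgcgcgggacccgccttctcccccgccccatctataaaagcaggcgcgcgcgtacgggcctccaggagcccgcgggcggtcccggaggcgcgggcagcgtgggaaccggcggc
The C1qb, C1qc and Laptm5 windows held GAGGAA once each, the Mpeg1 window held neither motif, and the Irf8 window shown held TTCNNNGAA at 2 positions. The table has 2 windows for Irf8, and the other, which is not shown, held it at 0. Over all members, GAGGAA on either strand was in 13 of 27 windows (48.1%), against 28.3% of all 32851 promoter windows of the table. AGGAAGT, an extended form of the site that shares 5 letters with GAGGAA, was in 9 of 27 windows, against 9.4% of all windows, and GAGGAAGT, which contains both, was in 4 of 27, against 3.2%. TTCNNNGAA, which is its own reverse complement, was in 1 window of Irf8 and in that of Ncf1 (2 of 27, 7.4%), against 8.3% of all windows. These are matches of letters and not measured binding.

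Libraries held 9404448 to 10266653 expected counts, of which the 33 genes took 0.0113% to 0.0601%. Oligodendrocyte lineage genes, which mark the labelled cell type, were present in all 12 libraries, with a summed level per length of 668 to 4887 FPKM (fragments scaled to transcript length and library size) over 18 genes, against 20.6 to 458 FPKM summed over the 32 myeloid markers other than Lyn. Sox10, a factor of the oligodendrocyte lineage, had 11.3, 49.8 and 73.1 FPKM in stattic libraries, 5.52, 18.1 and 42.4 FPKM in IL-10 libraries, 16.1, 18.0 and 40.4 FPKM in hemin libraries and 148, 114 and 151 FPKM in vehicle libraries. It was thus below the vehicle level in every hemin-treated library. Astrocyte genes were also present, with Gfap at 6.04 FPKM in IL-10 replicate 3 and at 1059 FPKM in vehicle replicate 1 as its extremes. Over 12 astrocyte genes the sum was 273 to 2263 FPKM. It exceeded the oligodendrocyte lineage sum in hemin replicate 1 (958 against 668 FPKM) and in stattic replicate 1 (1276 against 882 FPKM). In all other libraries it was below that sum. Markers of lymphocytes and neutrophils summed to at most 3.01 FPKM, and 8 of their 20 genes were listed in no library. Siglech, which separates microglia from many other macrophages, had 1 count in 1 library. A pair of libraries stood apart in the myeloid genes. By counts scaled to library size (CPM), hemin replicate 1 held the highest level of 21 of the 32 markers other than Lyn. Stattic replicate 2 held the highest CPM of 8, and the highest FPKM of 9. Vehicle replicate 3 held the lowest or joint lowest CPM of 26.

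**Figure D1:**
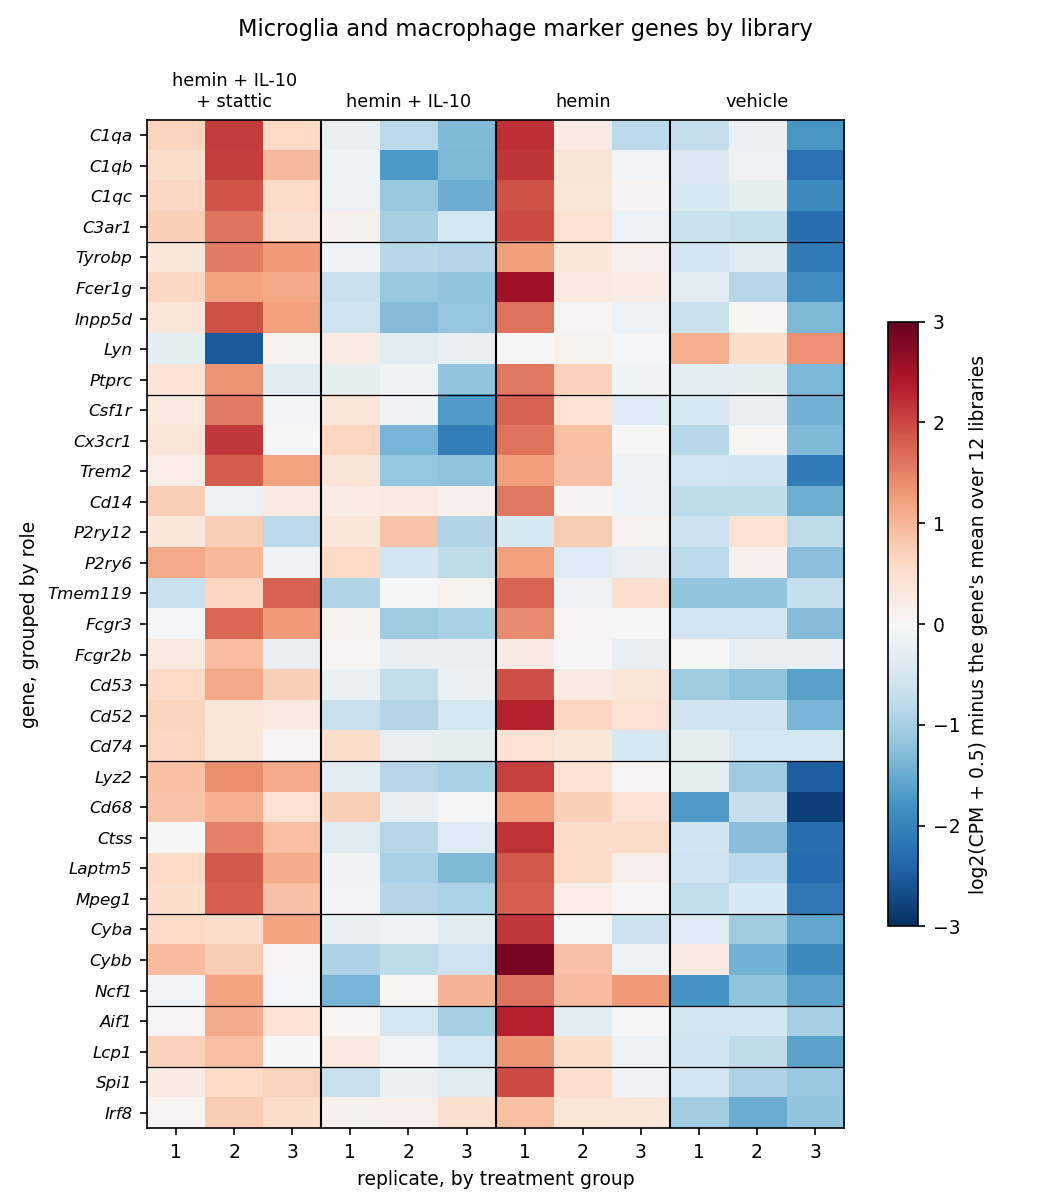
Level of each of the 33 genes in each library, as log2(CPM + 0.5) minus the gene's own mean over the 12 libraries (CPM, counts scaled by library size with TMM factors). Columns are replicates within groups, and rows are ordered by role. Hemin replicate 1 and stattic replicate 2 are red across most rows, vehicle replicate 3 is blue, and Lyn runs the other way.

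The complement genes were among the clearest markers. C1qa, C1qb and C1qc encode the chains of C1q, the recognition protein that starts the classical pathway and tags debris and synapses for uptake. C1qa had 10.6, 30.5 and 8.34 FPKM in stattic libraries, 5.28, 3.55 and 2.37 FPKM in IL-10 libraries, 31.6, 7.84 and 3.76 FPKM in hemin libraries and 4.27, 6.14 and 1.75 FPKM in vehicle libraries. C1qb had 6.89, 21.8 and 7.85 FPKM in stattic libraries, 4.0, 1.08 and 1.58 FPKM in IL-10 libraries, 22.2, 6.21 and 4.64 FPKM in hemin libraries and 3.65, 4.48 and 0.64 FPKM in vehicle libraries. C1qc had 9.35, 24.0 and 7.48 FPKM in stattic libraries, 5.01, 2.49 and 1.87 FPKM in IL-10 libraries, 23.9, 7.87 and 6.76 FPKM in hemin libraries and 4.62, 5.42 and 1.32 FPKM in vehicle libraries. In each of the 3 genes hemin replicate 1 and stattic replicate 2 were more than 2 times as high as any other library, and vehicle replicate 3 was lowest. The summed C1q level was 26.8, 76.3 and 23.7 FPKM in stattic libraries, 14.3, 7.12 and 5.82 FPKM in IL-10 libraries, 77.7, 21.9 and 15.2 FPKM in hemin libraries and 12.5, 16.0 and 3.71 FPKM in vehicle libraries. The highest library was thus 20.9 times the lowest. C3ar1, the receptor for the complement fragment C3a, had 2.01, 3.95 and 1.39 FPKM in stattic libraries, 1.27, 0.55 and 0.83 FPKM in IL-10 libraries, 4.97, 1.66 and 1.13 FPKM in hemin libraries and 0.79, 0.75 and 0.17 FPKM in vehicle libraries. Its hemin and vehicle libraries did not overlap, nor did its stattic and IL-10 libraries.

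The adaptors and signalling enzymes pass signals from immune receptors to the cell interior. Tyrobp, the adaptor that carries the signal of TREM2 and related receptors, had 7.94, 20.7 and 13.8 FPKM in stattic libraries, 5.39, 3.05 and 2.93 FPKM in IL-10 libraries, 16.4, 8.07 and 7.36 FPKM in hemin libraries and 4.32, 5.02 and 0.7 FPKM in vehicle libraries. Its 3 hemin libraries lay above its 3 vehicle libraries, and its 3 IL-10 libraries lay below both the stattic and the hemin libraries. Fcer1g, the common chain of activating Fc receptors, had 7.88, 12.7 and 9.83 FPKM in stattic libraries, 2.62, 1.75 and 1.69 FPKM in IL-10 libraries, 32.1, 6.13 and 6.13 FPKM in hemin libraries and 4.14, 2.54 and 0.77 FPKM in vehicle libraries. Hemin replicate 1 held more than 2 times the next highest level. Inpp5d, the phosphatase SHIP-1 that restrains such signals, had 0.48, 1.64 and 0.79 FPKM in stattic libraries, 0.19, 0.09 and 0.11 FPKM in IL-10 libraries, 1.31, 0.37 and 0.33 FPKM in hemin libraries and 0.22, 0.41 and 0.09 FPKM in vehicle libraries. Its IL-10 libraries were below all hemin libraries and below all stattic libraries, while hemin and vehicle libraries overlapped. Ptprc, the leukocyte phosphatase CD45, was at 0.06 to 1.05 FPKM. Lyn, a Src-family kinase of myeloid and B cells that is also found in other cell types, had 7.2, 1.4 and 7.77 FPKM in stattic libraries, 10.2, 7.39 and 7.72 FPKM in IL-10 libraries, 8.51, 9.41 and 9.19 FPKM in hemin libraries and 20.6, 13.7 and 25.4 FPKM in vehicle libraries. It was the 1 member whose vehicle libraries were all above every hemin-treated library, and it was lowest in stattic replicate 2.

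Surface receptors covered the genes most often used to recognise microglia. Csf1r had 1.3, 3.43 and 0.81 FPKM in stattic libraries, 1.36, 1.0 and 0.24 FPKM in IL-10 libraries, 3.94, 1.48 and 0.84 FPKM in hemin libraries and 0.82, 0.97 and 0.35 FPKM in vehicle libraries. Cx3cr1, the receptor for the neuronal chemokine fractalkine, had 1.43, 5.35 and 0.89 FPKM in stattic libraries, 1.74, 0.34 and 0.17 FPKM in IL-10 libraries, 3.68, 2.19 and 1.18 FPKM in hemin libraries and 0.6, 1.24 and 0.4 FPKM in vehicle libraries. The groups overlapped for Csf1r and Cx3cr1 in most comparisons, with stattic replicate 2 and hemin replicate 1 as the 2 highest libraries of both. P2ry12, a purinergic receptor of resting microglia, had 0.57, 0.87 and 0.13 FPKM in stattic libraries, 0.55, 0.94 and 0.13 FPKM in IL-10 libraries, 0.25, 0.86 and 0.51 FPKM in hemin libraries and 0.22, 0.71 and 0.17 FPKM in vehicle libraries. It stayed under 1 FPKM in all 12 libraries and was no higher in hemin replicate 1 than in vehicle replicate 2. Tmem119, a surface protein that distinguishes microglia from other macrophages, had 0.1, 0.61 and 1.34 FPKM in stattic libraries, 0.05, 0.31 and 0.36 FPKM in IL-10 libraries, 1.6, 0.25 and 0.58 FPKM in hemin libraries and 0, 0 and 0.1 FPKM in vehicle libraries, and was not listed in 2 of the vehicle libraries. Its counts summed to 42 over the stattic libraries, 14 over the IL-10 libraries, 49 over the hemin libraries and 2 over the vehicle libraries. Of the 49 in hemin libraries, 33 were in replicate 1. Trem2, the lipid-sensing receptor that signals through Tyrobp, had 2.42, 8.67 and 4.52 FPKM in stattic libraries, 2.75, 0.66 and 0.62 FPKM in IL-10 libraries, 5.61, 4.23 and 1.97 FPKM in hemin libraries and 1.38, 1.33 and 0.11 FPKM in vehicle libraries. Its hemin libraries lay above its vehicle libraries, with stattic replicate 2 the highest of all.

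Among the other receptors, Cd14, a co-receptor for bacterial lipopolysaccharide, had 1.36, 0.61 and 0.74 FPKM in stattic libraries, 0.86, 0.94 and 0.85 FPKM in IL-10 libraries, 2.74, 0.77 and 0.68 FPKM in hemin libraries and 0.32, 0.32 and 0.07 FPKM in vehicle libraries. All hemin-treated libraries lay above the vehicle libraries. Cd53, a leukocyte tetraspanin, had 1.12, 1.83 and 1.03 FPKM in stattic libraries, 0.57, 0.35 and 0.61 FPKM in IL-10 libraries, 3.17, 0.86 and 1.02 FPKM in hemin libraries and 0.26, 0.22 and 0.12 FPKM in vehicle libraries. It too was higher in every hemin-treated library than in any vehicle library. Cd52, a short glycoprotein of leukocyte surfaces, had 3.96, 3.01 and 2.26 FPKM in stattic libraries, 0.78, 0.55 and 1.05 FPKM in IL-10 libraries, 15.1, 3.9 and 3.45 FPKM in hemin libraries and 1.06, 1.01 and 0 FPKM in vehicle libraries. Hemin replicate 1 stood far above the rest. Fcgr3, a low-affinity receptor for immunoglobulin G, had 1.4, 6.11 and 3.47 FPKM in stattic libraries, 1.51, 0.52 and 0.43 FPKM in IL-10 libraries, 4.69, 1.56 and 1.63 FPKM in hemin libraries and 0.99, 0.97 and 0.42 FPKM in vehicle libraries. Its hemin and vehicle libraries did not overlap. The remaining receptors were low: P2ry6, a receptor for nucleotides that triggers phagocytosis, reached 1.23 FPKM, Cd74, the invariant chain of MHC class II, reached 0.51 FPKM, and Fcgr2b, the inhibitory Fc receptor, reached 0.47 FPKM.

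Lysosomal and killing proteins included the most abundant marker per length, Lyz2. Lyz2, which encodes lysozyme, had 67.4, 99.5 and 66.4 FPKM in stattic libraries, 27.9, 20.3 and 18.8 FPKM in IL-10 libraries, 153, 50.4 and 39.8 FPKM in hemin libraries and 33.2, 18.4 and 6.76 FPKM in vehicle libraries. Cd68, a heavily glycosylated lysosomal membrane protein, had 21.4, 25.7 and 13.5 FPKM in stattic libraries, 19.1, 10.1 and 12.1 FPKM in IL-10 libraries, 28.2, 19.9 and 17.2 FPKM in hemin libraries and 3.75, 7.94 and 1.47 FPKM in vehicle libraries. All 3 IL-10 libraries lay within the vehicle range for Lyz2, whereas Cd68 was higher in every IL-10 library than in any vehicle library. Ctss, the protease cathepsin S, had 5.44, 16.8 and 8.84 FPKM in stattic libraries, 4.0, 2.99 and 4.24 FPKM in IL-10 libraries, 25.9, 8.26 and 8.89 FPKM in hemin libraries and 3.87, 2.25 and 0.93 FPKM in vehicle libraries. Laptm5, a lysosomal membrane protein of blood cells, had 4.07, 10.4 and 4.92 FPKM in stattic libraries, 2.41, 1.27 and 0.98 FPKM in IL-10 libraries, 10.0, 4.09 and 3.2 FPKM in hemin libraries and 1.84, 1.59 and 0.4 FPKM in vehicle libraries. Mpeg1, a pore-forming protein that attacks engulfed bacteria, had 6.15, 15.3 and 6.47 FPKM in stattic libraries, 3.87, 2.33 and 2.21 FPKM in IL-10 libraries, 14.9, 4.94 and 4.82 FPKM in hemin libraries and 2.79, 3.39 and 0.97 FPKM in vehicle libraries. Hemin libraries were above vehicle libraries without overlap in all 5 of these genes.

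The NADPH oxidase makes superoxide in phagosomes. Cyba, a membrane subunit also used by oxidases of other cells, had 7.97, 8.02 and 10.4 FPKM in stattic libraries, 4.07, 4.62 and 3.91 FPKM in IL-10 libraries, 24.6, 4.99 and 3.17 FPKM in hemin libraries and 4.07, 2.27 and 1.33 FPKM in vehicle libraries. Cybb, the catalytic subunit of the phagocyte enzyme, had 1.53, 1.43 and 0.67 FPKM in stattic libraries, 0.35, 0.42 and 0.48 FPKM in IL-10 libraries, 6.21, 1.53 and 0.73 FPKM in hemin libraries and 1.06, 0.24 and 0.14 FPKM in vehicle libraries. In Cyba and Cybb hemin and vehicle libraries overlapped and hemin replicate 1 held more than 2 times the level of any other library. Ncf1, the cytosolic organiser subunit, had 0.96, 2.68 and 0.8 FPKM in stattic libraries, 0.28, 1.08 and 2.39 FPKM in IL-10 libraries, 3.64, 2.18 and 3.02 FPKM in hemin libraries and 0.19, 0.38 and 0.24 FPKM in vehicle libraries. Its 3 hemin libraries lay far above the vehicle libraries, and IL-10 replicate 3 was above hemin replicate 2. Lcp1, the actin-bundling protein L-plastin, had 1.96, 2.39 and 1.01 FPKM in stattic libraries, 1.36, 1.1 and 0.8 FPKM in IL-10 libraries, 3.41, 1.8 and 1.14 FPKM in hemin libraries and 0.85, 0.68 and 0.36 FPKM in vehicle libraries. Aif1, the actin-binding protein used as a stain for microglia, had at most 2.11 FPKM outside hemin replicate 1, where it had 5.60 FPKM.

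The transcription factors differed from each other. Spi1, the factor PU.1, had 0.75, 1.09 and 0.94 FPKM in stattic libraries, 0.23, 0.47 and 0.38 FPKM in IL-10 libraries, 3.32, 0.97 and 0.55 FPKM in hemin libraries and 0.3, 0.18 and 0.09 FPKM in vehicle libraries. It was highest in hemin replicate 1, where C1q was highest. Irf8 had 1.65, 2.94 and 1.94 FPKM in stattic libraries, 1.72, 1.83 and 2.42 FPKM in IL-10 libraries, 3.18, 2.11 and 2.26 FPKM in hemin libraries and 0.77, 0.5 and 0.68 FPKM in vehicle libraries. All 9 hemin-treated libraries lay between 1.65 and 3.18 FPKM, above all 3 vehicle libraries, whatever the level of C1q. Irf8 was also highest in hemin replicate 1 and next highest in stattic replicate 2 (3.18 and 2.94 FPKM). These were the 2 libraries with the most C1q.

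Hemin against vehicle asks what hemin does to cultured progenitors. Of the 30 members tested, 17 rose and 0 fell with an adjusted p under 0.05, whereas 11.7% of all tested genes rose and 9.15% fell. The log2 fold change of 29 of the 30 was positive, with a median of 2.13 over the members and of 0.03 over all genes tested. Among the members that rose, Tmem119, Spi1, Cd52, Cd14, Cd53 and Ncf1 had at most 10 counts in any vehicle library. They passed the filter on low counts through hemin-treated libraries, so that a call lower than vehicle was hardly open to them. The filter asked for about 10 counts in at least 3 libraries. Fcer1g, Laptm5, Cyba, Cybb and C3ar1, which also rose, had 4, 9, 8, 6 and 7 counts in vehicle replicate 3. These genes too entered the test through hemin-treated libraries. The hemin libraries lay above the vehicle libraries without overlap in 21 members and below them in 1, Lyn, against 25.6% and 24.5% of all genes. All 5 lysosomal and killing genes rose, as did all 3 oxidase genes and both transcription factors. Without hemin replicate 1, Lyz2, Laptm5, Mpeg1, Cyba and Cybb did not pass (adjusted p = 0.0894, 0.0981, 0.167, 0.305 and 0.222), and Cyba was at a log2 fold change of 0.79. Among the complement genes C3ar1 rose (log2 fold change 2.31 ± 0.68, adjusted p = 0.0309), and the 3 C1q chains did not pass, at 1.96 ± 0.76 for C1qa, 2.04 ± 0.79 for C1qb and 1.88 ± 0.67 for C1qc on the log2 scale (adjusted p = 0.0858, 0.0862 and 0.0632).

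The smallest adjusted p among the members was that of Irf8 (log2 fold change 2.06 ± 0.36, adjusted p = 0.00307; ± is the standard error here and below). Cd53 rose (log2 fold change 3.17 ± 0.61, adjusted p = 0.00496), as did Ncf1 (log2 fold change 3.54 ± 0.71, adjusted p = 0.00625), Cd68 (log2 fold change 2.43 ± 0.50, adjusted p = 0.0074) and Ctss (log2 fold change 2.73 ± 0.61, adjusted p = 0.0103). These 5 genes passed in each of 22 alternative analyses, although Cd53 and Ncf1 entered the test through hemin-treated libraries, as stated above. Spi1 rose (log2 fold change 3.27 ± 0.77, adjusted p = 0.0126), and so did Cd52 (log2 fold change 3.50 ± 0.83, adjusted p = 0.0129), Lyz2 (log2 fold change 2.20 ± 0.58, adjusted p = 0.0199), Cd14 (log2 fold change 2.65 ± 0.71, adjusted p = 0.0215) and Fcer1g (log2 fold change 2.70 ± 0.72, adjusted p = 0.0214). Lcp1, Laptm5, Mpeg1, Cybb and Cyba also passed, at log2 fold changes of 1.83 ± 0.49, 2.30 ± 0.63, 1.91 ± 0.57, 2.69 ± 0.82 and 2.24 ± 0.70. Tmem119 passed (adjusted p = 0.0312), and since the vehicle libraries held only 2 of its counts, its ratio of 26.5 had a 95% counting interval of 6.94 to 225, which covers counting error only. Csf1r, Cx3cr1, P2ry12, P2ry6, Trem2, Tyrobp, Fcgr3, Ptprc and Inpp5d did not pass, with log2 fold changes from 0.63 ± 0.82 for P2ry12 to 2.19 ± 0.82 for Trem2. Lyn did not pass either (log2 fold change -1.03 ± 0.48, adjusted p = 0.151). The number that rose depended on single libraries. It was 6 when hemin replicate 1 was left out. Leaving out vehicle replicate 1, 2 or 3 gave 10, 6 or 6. It was 5 without hemin replicate 1 and stattic replicate 2 together, where the median over the members other than Lyn was 1.32 in place of 2.19. Hemin libraries also differed from vehicle libraries in transcript length and in ribosomal protein genes. The fifth of genes with the shortest transcripts stood at a log2 level of 0.45, 0.25 and 0.21 relative to the vehicle mean in hemin libraries, against -0.05, -0.01 and 0.06 in vehicle libraries, and the fifth with the longest at -0.45, -0.11 and -0.09, against 0.01, -0.01 and 0.00. Ribosomal protein genes took 5.84%, 4.76% and 4.93% of counts in hemin libraries, against 2.67%, 3.04% and 3.13% in vehicle libraries. When hemin replicate 1 and stattic replicate 3, in which level depended most on transcript length, were left out, 7 markers rose. The part of transcript length or RNA quality in the marker result was not tested.

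**Figure D2:**
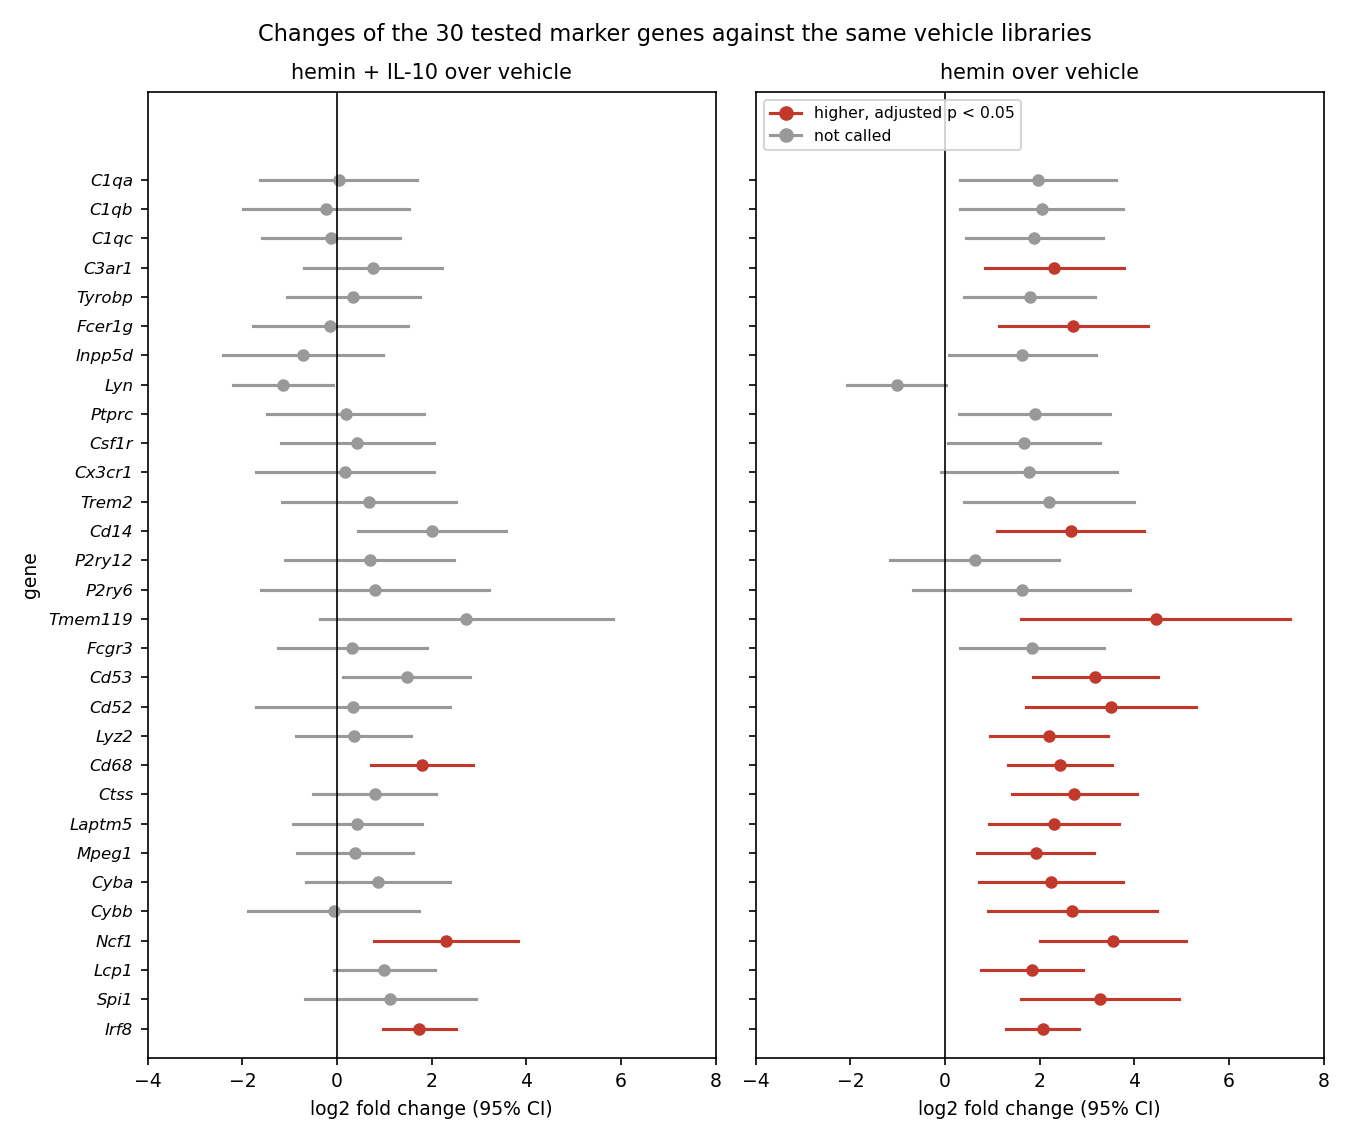
Log2 fold changes (points) with 95% confidence intervals (lines) of the 30 tested members, for hemin with IL-10 over vehicle on the left and hemin over vehicle on the right, both against the same 3 vehicle libraries. Red marks genes with an adjusted p under 0.05. On the left 3 genes are red (Cd68, Ncf1 and Irf8) and most intervals span 0, and on the right 17 genes are red and Lyn alone lies below 0.

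Addition of IL-10 to hemin asks whether the cytokine alters the response. No member passed in edgeR (0 of 30), as no gene did genome-wide (0%), and 17 members had an unadjusted p under 0.05. DESeq2 also called 0 members, and genome-wide 2 genes higher and 1 lower. The log2 fold change was negative for 29 of the 30, with a median of -1.58 over the members against -0.01 over all tested genes. IL-10 libraries lay below hemin libraries without overlap in 14 members and above them in 0, against 5.08% and 3.61% of all tested genes. The 14 below were Lyz2, Ctss, Fcer1g, Laptm5, Tyrobp, C1qb, C1qc, Ptprc, Cd53, Cd52, Cybb, Inpp5d, Spi1 and Mpeg1. Fcer1g had a log2 fold change of -2.84 ± 0.74 with a 95% interval of -4.44 to -1.24 (adjusted p = 0.999), and Cd52 one of -3.17 ± 0.81. Cd68 and Irf8 were at -0.64 ± 0.47 and -0.32 ± 0.33, and P2ry12 at 0.06 ± 0.80. Without hemin replicate 1, the median over members other than Lyn was -0.96 in place of -1.61 and 2 members had an unadjusted p under 0.05. The values above are from fits without pairing, although same-numbered libraries of these 2 groups deviated together. With the replicate number as a block 0 members passed and 22 had an unadjusted p under 0.05. The median over members other than Lyn was then -1.56.

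Addition of stattic to hemin with IL-10 asks whether STAT3 inhibition alters the response. Again 0 of 30 members passed in edgeR and 0 in DESeq2, with 0% of all genes called, and 15 members had an unadjusted p under 0.05. The direction was opposite to that of the IL-10 comparison, which used the same IL-10 libraries: 28 of the 30 log2 fold changes were positive, with a median of 1.59 against 0.02 over all tested genes. Stattic libraries lay above IL-10 libraries without overlap in 16 members and below them in 0, against 3.15% and 2.21% of all tested genes. Inpp5d had the largest change among members (2.98 ± 0.76, 95% interval 1.33 to 4.63, adjusted p = 0.921), followed by C1qb (2.49 ± 0.81) and Fcer1g (2.39 ± 0.73). Cd68, Irf8, Cd14 and Ncf1 were at 0.61 ± 0.47, 0.24 ± 0.34, 0.13 ± 0.64 and 0.33 ± 0.63. Without stattic replicate 2, 9 members had an unadjusted p under 0.05 and the median over members other than Lyn was 1.33 in place of 1.63. Without stattic replicate 3, where level depended strongly on transcript length, these were 16 and 1.82. With the replicate number as a block they were 20 and 1.56.

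Against vehicle, hemin with IL-10 gave 3 members higher of 30 and 0 lower, when 12.1% of all tested genes were higher and 8.81% lower. These were Irf8 (log2 fold change 1.74 ± 0.36, adjusted p = 0.0069), Cd68 (log2 fold change 1.79 ± 0.50, adjusted p = 0.0256) and Ncf1 (log2 fold change 2.30 ± 0.70, adjusted p = 0.0364). The median over members was 0.43, and C1qa, C1qb and C1qc were at 0.03 ± 0.76, -0.24 ± 0.81 and -0.13 ± 0.67. The 95% interval for C1qa was -1.63 to 1.69 and that for C1qc -1.59 to 1.34. Cd14 was at 2.00 ± 0.72 and did not pass (adjusted p = 0.0664), although all its IL-10 libraries lay above all its vehicle libraries. Ncf1 and Cd14 entered the test through hemin-treated libraries, as stated above. IL-10 libraries lay above vehicle libraries in 6 members and below in 1, Lyn, against 24.9% and 24.3% of all tested genes. The count of 3 became 1 without vehicle replicate 1 or without vehicle replicate 3, and 5 without hemin replicate 1, which enters through the shared estimate of spread. With library totals in place of size factors, 2 members passed, and the share of calls that were higher genome-wide was 44.2% in place of 57.9%.

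Hemin with IL-10 and stattic gave 19 members higher than vehicle and 1 lower, against 14.7% and 10.2% of all tested genes. Among those higher, Trem2, Tyrobp, Fcgr3, Cd53 and Ncf1 had 1, 3, 5, 3 and 6 counts in vehicle replicate 3. They passed the filter on low counts through hemin-treated libraries and could hardly be called lower than vehicle. The median was 2.24 over members and 0.10 over all tested genes. Stattic libraries lay above vehicle libraries without overlap in 24 members and below them in 1, Lyn, against 21.5% and 19.6% of all tested genes. Members that passed included C1qc (log2 fold change 2.02 ± 0.67, adjusted p = 0.0446), Trem2 (log2 fold change 2.68 ± 0.83, adjusted p = 0.0347), Tyrobp (log2 fold change 2.29 ± 0.64, adjusted p = 0.023) and Fcgr3 (log2 fold change 2.41 ± 0.70, adjusted p = 0.0273). Irf8 (1.98 ± 0.36), Cd53 (2.93 ± 0.61) and Cd68 (2.41 ± 0.50) passed as well. All 5 lysosomal and killing genes rose, while 1 of the 3 oxidase genes, Ncf1, rose (2.63 ± 0.70). Lyn fell (log2 fold change -1.60 ± 0.49, adjusted p = 0.0345). C1qa and C1qb did not pass (2.20 ± 0.77 and 2.25 ± 0.80, adjusted p = 0.0533 and 0.0572). The count of 19 became 6 when stattic replicate 2 was left out, and 6, 8 or 4 when vehicle replicate 1, 2 or 3 was, and Lyn did not pass without vehicle replicate 1 or 3. With library totals 15 members rose, and 39.0% of all calls were higher in place of 59.0%. In stattic libraries the fifth of genes with the shortest transcripts stood at 0.12, 0.25 and 1.09 relative to the vehicle mean (log2). The fifth with the longest stood at -0.14, -0.13 and -0.83. Ribosomal protein genes took 3.92%, 5.38% and 9.76% of counts. Without stattic replicate 3 the median over members other than Lyn was 2.31 in place of 2.25. The part of these differences in the marker result was not tested.

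Most members varied less from library to library as a ratio to C1q than as a level. Levels were taken as log2(CPM + 0.5), where the added 0.5 narrows the spread of genes with few counts. From each gene's level, that of the summed C1qa, C1qb and C1qc in the same library was subtracted, which gave a log2 ratio. The standard deviation (SD) of this ratio over the 12 libraries was compared with that of the gene's own level. It was smaller for the ratio in 21 of 27 members, against 276 of 13964 tested genes (1.98%), 17 of the 34 tested myeloid genes that are no members, 3 of 13 vascular and fibroblast genes and 2 of 14 neuron genes. All tested genes varied less as a level (median SD 0.50) than the members did (median SD 1.04), so that their share is not a like-for-like baseline. The ratio was not fixed: its median SD over the members was 0.66. Without the added 0.5, its highest value was 1.99 to 360 times its lowest over the 24 members with counts in every library, C1q aside. The median was 5.22 times. This is a description, since C1q was taken as the measure with its values known. Mpeg1 had an SD of 0.29 as a ratio and of 1.15 as a level. Its counts per C1q count were 1.01, 0.89 and 1.21 in stattic libraries, 1.19, 1.44 and 1.69 in IL-10 libraries, 0.85, 0.99 and 1.39 in hemin libraries and 0.98, 0.94 and 1.15 in vehicle libraries. The ratio spanned 1.99-fold over libraries in which the level spanned 17.3-fold. Laptm5 followed with 0.30 as a ratio and 1.27 as a level, then C3ar1 with 0.40 and 1.16 and Inpp5d with 0.41 and 1.11.

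Irf8, Ncf1, Cd14, P2ry12, Tmem119 and Lyn were the 6 members with a larger SD as a ratio. Irf8 counts per C1q count were 0.18, 0.11 and 0.24 in stattic libraries, 0.35, 0.75 and 1.2 in IL-10 libraries, 0.12, 0.28 and 0.43 in hemin libraries and 0.18, 0.09 and 0.53 in vehicle libraries. Its ratio was highest in IL-10 replicate 3, a library with little C1q, and the SD was 1.09 as a ratio and 0.80 as a level. Lyn had the largest SD as a ratio, at 2.04, against 0.95 as a level.

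**Figure D3:**
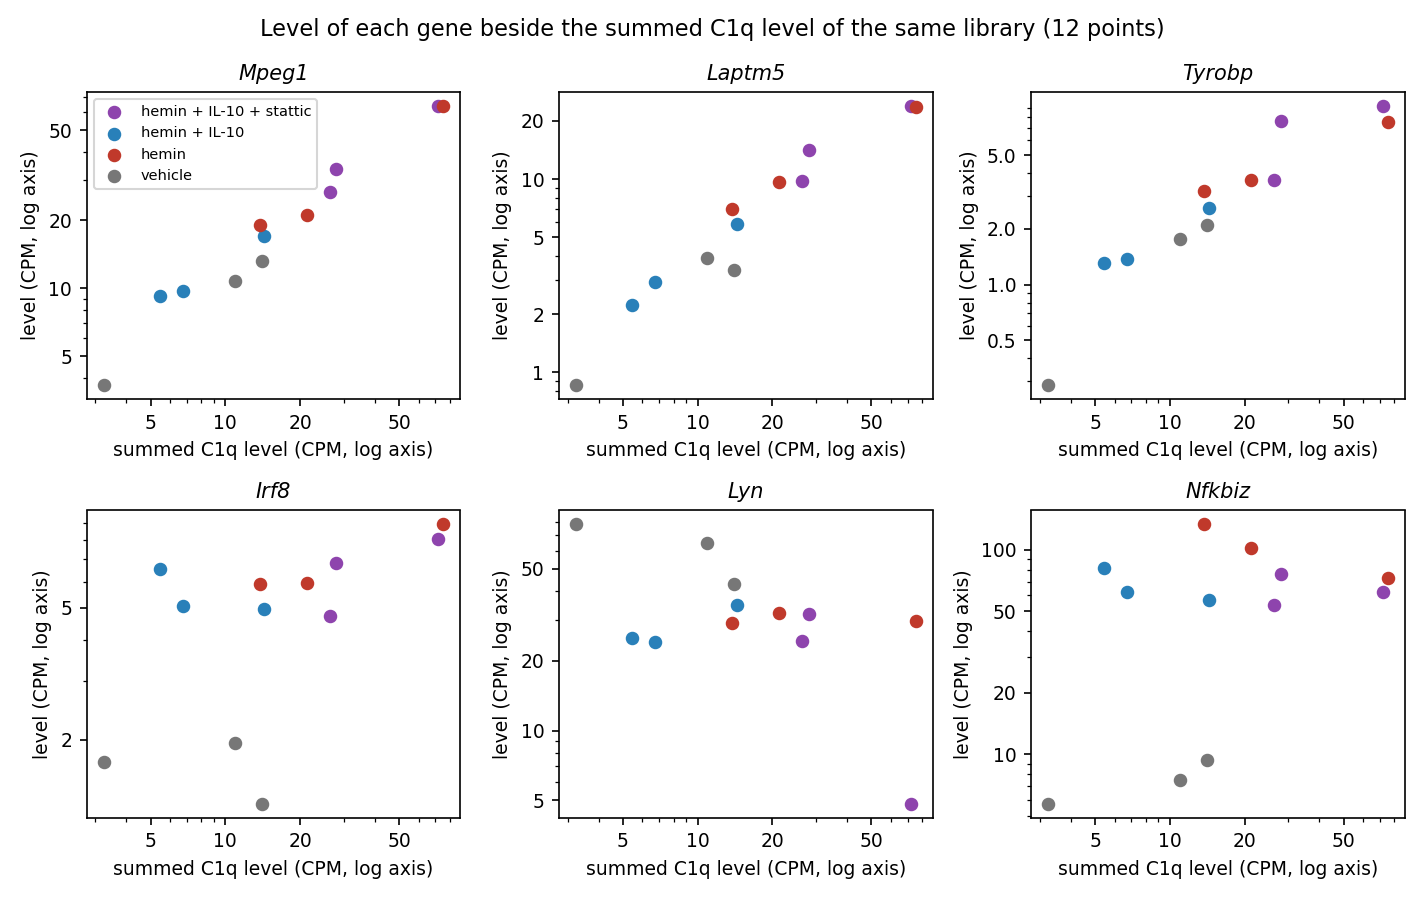
Level of 6 genes in each of the 12 libraries (y, CPM, log axis) beside the summed level of C1qa, C1qb and C1qc in the same library (x, CPM, log axis), coloured by group. Mpeg1, Laptm5 and Tyrobp lie along a rising line that all 4 groups share, whereas Irf8 and Nfkbiz, an inhibitor-like NF-kB cofactor that is no marker, lie higher in all hemin-treated libraries than in vehicle at any C1q level, and Lyn lies highest in vehicle.

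Genes of inflammation and NF-kB targets, which microglia and other cells can both express, were set beside the markers. Of 24 tested genes of this list, 16 were higher in hemin than in vehicle and 0 lower (median log2 fold change 3.34). The shares of all tested genes were 11.7% and 9.15%. Among the tested genes, Il6, Tnf, Cxcl1 and Cxcl2 had 0 counts in every vehicle library. Il11, Ccl3, Ccl4, Ccl5, Ccl7, Icam1 and Lcn2 had at most 7 counts in any vehicle library, and Cxcl10 and Ptgs2 at most 13. All of these passed the filter on low counts through hemin-treated libraries and could hardly be called lower than vehicle. With hemin and IL-10, 14 were higher than in vehicle (median 2.13), as were 3 of 30 markers and 12.1% of all tested genes. With stattic, 13 were higher than in vehicle (median 2.13), against 14.7% of all tested genes. Nfkbiz, which is induced by NF-kB signalling, had 14.7, 17.8 and 17.3 FPKM in stattic libraries, 15.4, 17.6 and 23.4 FPKM in IL-10 libraries, 20.2, 28.3 and 39.8 FPKM in hemin libraries and 2.33, 2.92 and 1.76 FPKM in vehicle libraries. It was higher in every hemin-treated library than in vehicle (log2 fold change 3.77 ± 0.30, adjusted p = 3.68e-05 for hemin, log2 fold change 3.15 ± 0.29, adjusted p = 8.64e-05 for hemin with IL-10). Ptgs2, the inducible cyclooxygenase, had 64.3, 22.4 and 7.11 FPKM in stattic libraries, 40.9, 38.2 and 6.14 FPKM in IL-10 libraries, 40.2, 41.5 and 10.8 FPKM in hemin libraries and 0.23, 0.3 and 0.05 FPKM in vehicle libraries. Its vehicle libraries were all far below the rest (log2 fold change 7.44 ± 1.12, adjusted p = 0.00156 for hemin, log2 fold change 7.34 ± 1.11, adjusted p = 0.00184 for hemin with IL-10). Cxcl10, a chemokine that attracts T cells, had 6.77, 4.16 and 9.77 FPKM in stattic libraries, 9.01, 13.8 and 7.66 FPKM in IL-10 libraries, 23.9, 27.3 and 32.9 FPKM in hemin libraries and 1.23, 1.1 and 0.11 FPKM in vehicle libraries, and was likewise higher with hemin (log2 fold change 5.19 ± 0.62, adjusted p = 0.000462) and with hemin and IL-10 (log2 fold change 3.75 ± 0.60, adjusted p = 0.00218). Il11, a cytokine of the IL-6 family, had 13.7, 8.88 and 4.89 FPKM in stattic libraries, 9.54, 10.3 and 7.68 FPKM in IL-10 libraries, 9.69, 4.22 and 2.02 FPKM in hemin libraries and 0.12, 0.27 and 0.19 FPKM in vehicle libraries (log2 fold change 5.08 ± 0.68, adjusted p = 0.000874 for hemin, log2 fold change 5.87 ± 0.69, adjusted p = 0.000476 for hemin with IL-10).

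The inflammatory genes shared with the markers the library that was highest. Of the 31 genes 18 had their highest level in hemin replicate 1, and their summed level was 223, 117 and 104 FPKM in stattic libraries, 170.0, 183 and 113 FPKM in IL-10 libraries, 346, 221 and 199.6 FPKM in hemin libraries and 94.4, 90.3 and 47.4 FPKM in vehicle libraries. Hemin replicate 1 was thus highest and vehicle replicate 3 lowest, as for the markers, whereas stattic replicate 2, the other library rich in markers, had 117 FPKM. In counts, Ptgs2 was at 2780, 931 and 323 in stattic libraries and 1734, 1590 and 261 in IL-10 libraries, when the C1q chains summed to 251, 688 and 233 counts in the same stattic libraries and to 133, 64 and 54 in the same IL-10 libraries. In 9 of the 24 inflammatory genes the SD was smaller as a ratio to C1q than as a level (37.5%). Stattic added to hemin with IL-10 left the list at a median log2 fold change of -0.06, with 10 of 24 positive and 0 called, where 28 of 30 markers were positive. Without hemin replicate 1 the number of inflammatory genes higher in hemin was 14, and without hemin replicate 1 and stattic replicate 2 together it was 13, when 6 and 5 markers were. The part that myeloid cells had in the inflammatory changes was not tested.

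**Figure D4:**
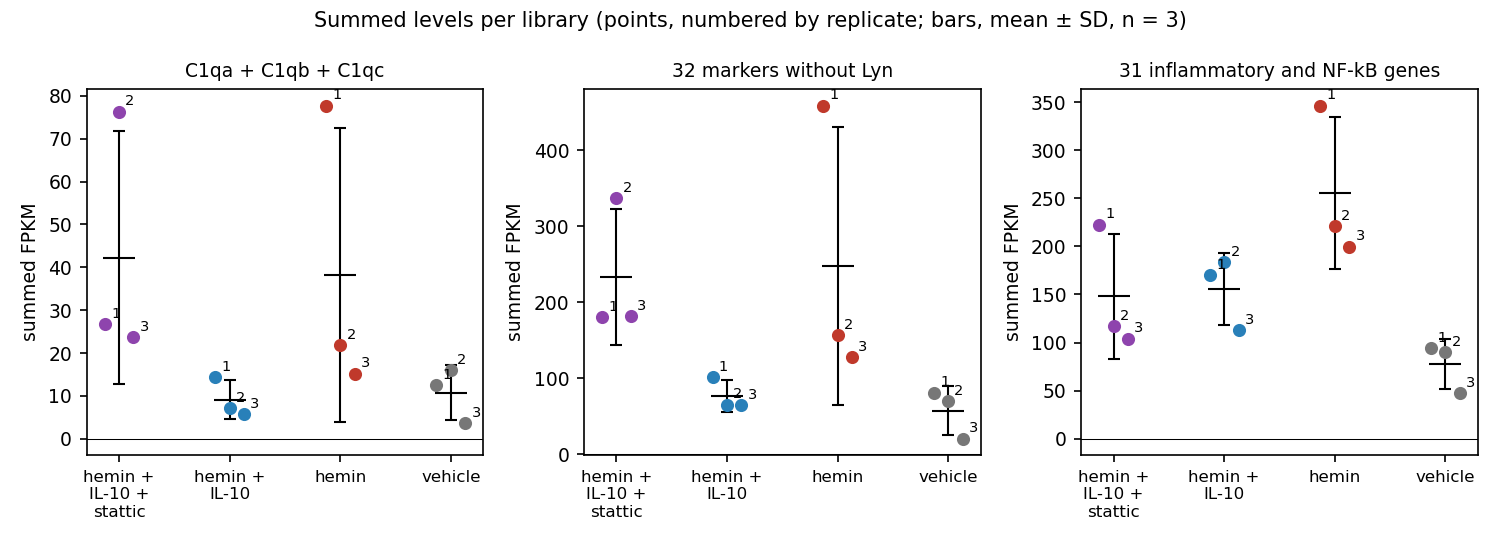
Summed FPKM per library of the 3 C1q genes, of the 32 markers other than Lyn and of the 31 inflammatory and NF-kB genes, with points numbered by replicate and bars for mean ± SD (n = 3). Stattic replicate 2 and hemin replicate 1 stand above all other libraries in the first 2 panels, with 76.3 and 77.7 FPKM of C1q, and in the third panel hemin replicate 1 is again highest, with 346 FPKM, and stattic replicate 2 lies below stattic replicate 1, with 117 against 223 FPKM.

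A further 56 genes known from myeloid cells that are no members were examined in the same way, and 34 were tested. In hemin against vehicle 18 were higher and 0 lower (median 2.16), against 11.7% and 9.15% of all tested genes. In hemin with IL-10 against vehicle 5 were higher (median 0.81), against 12.1% of all tested genes. In IL-10 against hemin and in stattic against IL-10 0 were called, with medians of -0.94 and 0.80. In stattic against vehicle 18 were higher, against 14.7% of all tested genes. Clec7a, the receptor dectin-1 for fungal glucans, had 0.79, 2.42 and 1.61 FPKM in stattic libraries, 0.76, 0.41 and 0.7 FPKM in IL-10 libraries, 5.54, 2.56 and 1.45 FPKM in hemin libraries and 0.59, 0.29 and 0.15 FPKM in vehicle libraries and was higher with hemin (log2 fold change 3.31 ± 0.67, adjusted p = 0.00658). Runx1, a transcription factor of blood formation, had 1.98, 2.46 and 0.43 FPKM in stattic libraries, 2.23, 1.95 and 0.84 FPKM in IL-10 libraries, 1.08, 1.02 and 0.51 FPKM in hemin libraries and 0.04, 0.13 and 0.04 FPKM in vehicle libraries, and was higher with hemin (log2 fold change 3.87 ± 0.73, adjusted p = 0.00457) and with hemin and IL-10 (log2 fold change 4.87 ± 0.74, adjusted p = 0.00183). Selplg, a ligand for selectins on leukocytes, had 1.27, 5.82 and 2.02 FPKM in stattic libraries, 0.68, 1.51 and 2.71 FPKM in IL-10 libraries, 2.22, 2.95 and 4.11 FPKM in hemin libraries and 0.18, 0 and 0 FPKM in vehicle libraries. It was listed in 1 of the 3 vehicle libraries. Mrc1, the mannose receptor of perivascular macrophages, reached only 0.50 FPKM. Hemin replicate 1 was also the highest library for vascular and fibroblast genes, whose sum was 101 FPKM there. It was 26.1 and 30.8 FPKM in the other hemin libraries and 3.83 to 9.83 FPKM in vehicle libraries. Of 13 tested genes of that list 8 were higher in hemin, against 11.7% of all tested genes. Stattic replicate 2 had 16.0 FPKM of the vascular and fibroblast genes, and it had the highest sum of oligodendrocyte lineage genes, 4887 FPKM. The part that these differences had in the marker results was not tested.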

How the data were processed

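Total RNA of 12 libraries was sequenced after second-strand synthesis with dUTP, per the labels' protocols, and the submitters' processing notes name CASAVA, HISAT, StringTie, Bowtie, Bowtie2, RSEM, TopHat and Cufflinks without versions or roles. The genome build and the strand setting of the counting are not given in the sources used here. The deposited files hold, per the file headers, an expected count and an FPKM value made by the authors for each gene, with a transcript length. Files list only genes with a value, and an absent gene was taken as 0.

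Expected counts were rounded and tested with edgeR 4.0.16 (R 4.3.3): filterByExpr, TMM factors (the trimmed mean of M values), a robust quasi-likelihood fit over all 12 libraries with 1 mean per group, and Benjamini-Hochberg adjustment over all 13967 tested genes with a threshold of 0.05. FPKM served for levels between genes, and CPM with TMM factors for overlap of groups and for sums. DESeq2 1.42.0 and limma 3.58.1 served alternatives, and the fit was tested on simulated data. No pair of replicates was within counting noise. Library totals are close to each other, so depth limits mainly the genes under about 10 counts, and counting intervals cover counting error only.

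Values per library are given for members with a mean of at least 1 FPKM, members called in any comparison and lineage-defining genes, other members by range, and for other lists at most 4 genes with the smallest adjusted p in hemin against vehicle. The members and lists were chosen with earlier results of these data known. Replicate numbers come from the labels. For hemin with IL-10 against hemin, libraries with the same number deviated together across genes (r = 0.39, 0.17 and 0.62 for numbers 1, 2 and 3). The fold changes and p-values given for that comparison are nevertheless from the fit without pairing. A fit with the replicate number as a block was 1 of the alternatives. In each of the other 4 comparisons at least 1 pair had r under 0.1. For stattic against IL-10, r was 0.67, -0.06 and 0.49 for numbers 1, 2 and 3, so that numbers 1 and 3 deviated together there as well.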

Additional observations from a re-analysis of the deposited data

How the results depend on the processing

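Each of the 11 counts was recomputed under 22 alternatives, of which 1, leaving out the 2 libraries with the highest C1q level (hemin replicate 1 and stattic replicate 2), was chosen after seeing the data. A count could only be labelled as kept or moved, so that reversal was not open to it. Single genes were followed where they were called in hemin or in hemin with IL-10 against vehicle. In stattic against vehicle only Lyn was followed. None of the genes followed changed sign in the alternatives that tested it. The 0 calls among members in IL-10 against hemin and in stattic against IL-10 held under all 22. Members higher in hemin than in vehicle numbered 17, and 7 without the 2 libraries with the steepest trend on transcript length (hemin replicate 1 and stattic replicate 3), 5 without the 2 with the highest C1q level, and 6 to 19 when single libraries were left out. Members lower numbered 0, and 1 with only the 2 groups compared or without the highest C1q libraries, with a range of 0 to 1 for single libraries. In hemin with IL-10 against vehicle, members higher numbered 3, and 5 with the replicate block, without the steepest length libraries or without the highest C1q libraries, with a range of 1 to 5, and members lower numbered 0, and 1 with only the 2 groups or without the highest C1q libraries, with a range of 0 to 1. With stattic against vehicle, members higher numbered 19, and 12 with limma on log2(FPKM + 1) or without the highest C1q libraries, with a range of 4 to 23. Members lower numbered 1, and 0 with only the 2 groups, with a range of 0 to 1. The causes were not tested. The replicate block gave 24 members higher in hemin and 27 with stattic, but the numbers pair libraries by the rule only between hemin with IL-10 and hemin. Inflammatory genes higher in hemin numbered 13 to 19 under other settings and 11 to 17 with single libraries left out. Library totals moved the median log2 fold change of all genes from 0.03 to -0.07 in hemin against vehicle and from 0.10 to -0.14 with stattic. Genome-wide, 38.9% of calls in hemin against vehicle were higher with limma on log2(FPKM + 1), in place of 56.2%.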

Other observations

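Markers of other cell types were tested in hemin against vehicle, where 11.7% of all tested genes were higher and 9.15% lower. Of 14 tested neuron genes 5 were higher in hemin than in vehicle and 1 lower, led by the neurofilament gene Nefm, which had 88.9, 75.9 and 34.9 FPKM in stattic libraries, 134, 76.3 and 56.8 FPKM in IL-10 libraries, 89.7, 104 and 64.2 FPKM in hemin libraries and 2.34, 2.36 and 4.21 FPKM in vehicle libraries (log2 fold change 4.98 ± 0.46, adjusted p = 7.12e-05 for hemin). Elavl3, an RNA-binding protein of neurons, was lower (log2 fold change -1.84 ± 0.40, adjusted p = 0.00859). Of 17 tested oligodendrocyte lineage genes 0 were higher and 4 lower, among them the lineage factor Olig2, which had 37.8, 9.77 and 25.0 FPKM in stattic libraries, 55.5, 48.7 and 48.6 FPKM in IL-10 libraries, 51.8, 22.5 and 21.3 FPKM in hemin libraries and 166, 219 and 296 FPKM in vehicle libraries (log2 fold change -2.71 ± 0.50, adjusted p = 0.00403). Of 11 tested astrocyte genes 0 were higher and 1 lower, the glutamate transporter Slc1a2 (log2 fold change -1.82 ± 0.55, adjusted p = 0.0355). The share lower was thus close to that of all tested genes for astrocyte and neuron genes. All p-values are from edgeR and adjusted over all tested genes.

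Pecam1, an endothelial adhesion molecule, had 3.76, 8.84 and 2.14 FPKM in stattic libraries, 1.66, 4.7 and 6.28 FPKM in IL-10 libraries, 2.97, 6.75 and 8.5 FPKM in hemin libraries and 0.16, 0.13 and 0.11 FPKM in vehicle libraries, and was higher with hemin (log2 fold change 5.83 ± 0.70, adjusted p = 0.000462). Dcn, a proteoglycan of fibroblasts, had 0.91, 1.12 and 1.13 FPKM in stattic libraries, 1.04, 0.41 and 1.03 FPKM in IL-10 libraries, 12.4, 1.41 and 1.6 FPKM in hemin libraries and 0.17, 0 and 0.06 FPKM in vehicle libraries. Hemin replicate 1 was several times above all other libraries in Dcn, whereas for Pecam1 it was the lowest of the hemin libraries. Of the 3 tested MHC class II genes 1 was higher, H2-DMa, which helps to load peptides and had 4.81, 5.65 and 5.57 FPKM in stattic libraries, 3.04, 4.98 and 6.07 FPKM in IL-10 libraries, 3.75, 4.51 and 6.64 FPKM in hemin libraries and 1.73, 1.11 and 1.58 FPKM in vehicle libraries (log2 fold change 1.60 ± 0.34, adjusted p = 0.00825). Of the lymphocyte and neutrophil genes, 1 was tested, the B cell receptor chain Cd79a, and it was higher with hemin (log2 fold change 3.32 ± 0.95, adjusted p = 0.0286) at no more than 1.23 FPKM in any library.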
